A study of Mus musculus with 40 samples.

Results

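The comparison set the livers of 5 mice given TCDD at 3 μg/kg beside those of 5 mice given sesame oil vehicle. These 10 libraries were chosen by their dose labels from the 40 RNA-Seq libraries of a study with 8 dose levels. All were male C57BL/6 mice, 30 days old at the start and 58 days old at the end, gavaged with 0.1 mL every 4 days for 28 days (7 administrations). The vehicle group received sesame oil alone and the treated group TCDD in sesame oil. Each library came from 1 liver, so the 5 values of a group are 5 mice, numbered below in the order of deposition. The livers were whole tissue, hence each value averages over hepatocytes and all other liver cells.

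TCDD, the most potent of the dioxins, activates the aryl hydrocarbon receptor. This receptor (AhR) is a transcription factor that a chaperone complex holds in the cytosol until a ligand binds. The ligand-bound receptor moves to the nucleus, pairs with ARNT and binds dioxin response elements, whose core is GCGTG. In the liver its classical targets are the cytochromes P450 of family 1 and other enzymes of xenobiotic metabolism, and prolonged activation in mice is known for fat accumulation and inflammation.

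The 10 libraries held 15.5 to 20.9 M counts in genes. Values are given as CPM, the counts of a gene per 1000000 counts of the scaled library. Along the leading principal component of all libraries (47.6% of the variance), the vehicle mice lay between -50.4 and -31.3 and the 3 μg/kg mice between -9.65 and 1.79. The summed level of 7 hepatocyte markers was 102000 to 124000 CPM in vehicle and 75200 to 97000 CPM at 3 μg/kg. Their most abundant member, albumin (Alb), averaged 83020 ± 7115 CPM in vehicle and 66920 ± 9729 CPM at 3 μg/kg (SD, n = 5 each) and was not called. Of the 7, Apoa1, Ttr and Cps1 were called lower, all 7 had an estimate below 0 and the median log2 fold change was -0.64, against 0 over all genes tested. Mouse 5 of the 3 μg/kg group lay outside the rest of its group on the second component (-49.2, against -28.9 to -10.2). The same held on the third component (-23.6, against 7.97 to 32). It was kept in the fits below that leave out the libraries that stood apart. By that phrase a pair of libraries is meant, which stood apart by muscle counts or by read mapping. Vehicle mouse 2 held 6027 counts over 6 skeletal muscle markers, against at most 10 in any of the other 9 libraries. Mouse 2 of the 3 μg/kg group had the lowest share of reads in genes (71.3%) and the highest share of unmapped reads (11.3%) of all 40 libraries, and it held the high acute phase values described below.

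The transcriptome was first compared as a whole. Genes were called at a fold change of 1.5 or more with an adjusted p (edgeR quasi-likelihood test, Benjamini-Hochberg) below 0.05. This gave 1038 calls among 15373 tested genes (6.75%), 697 higher (4.53%) and 341 lower (2.22%), and by adjusted p without the fold threshold 1577 genes (10.3%) passed. The shares of 4.53% and 2.22% are the ones to set beside the calls of every gene list below. With libraries scaled to total counts alone, 862 were called higher and 250 lower, so the higher share of the calls was 67.1% in the main fit and 77.5% under that scaling, where the median log2 fold change of all genes was 0.08 and not 0. The median fold change of the called genes was 2.24 among the rises and 1.91 among the falls. A change of at least 10-fold was seen in 62 rises and 9 falls, and one of at least 2-fold in 422 rises and 160 falls. The 5 vehicle and 5 treated values did not overlap for 717 of the called genes and for 9.72% of all genes tested.

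Leaving out any 1 of the 10 mice lowered the count of calls, to between 837 and 1021. The fits without 1 vehicle mouse gave 846 to 949 calls, and the fit without mouse 5 of the 3 μg/kg group gave 880. Without vehicle mouse 2 the count was 949, without mouse 2 of the 3 μg/kg group it was 837, and without both it was 816, 561 higher and 255 lower. Of the 1038 genes, 700 were still called without both. The mice fell into 2 numbering runs of the sample titles, with mice 1 to 3 of each group in run 1 and mice 4 and 5 in run 2. The order of a mouse is its place in a block of 3 title numbers. In run 1 both groups held places 1 to 3. In run 2 the vehicle mice held places 1 and 2 and the treated mice places 2 and 3, so order was not balanced there. The labels do not say what run or order stands for. Run 1 alone gave 429 calls and run 2 alone 402. Among the genes called over all mice, 1036 of 1036 tested had the same direction in run 1 alone and 1026 of 1038 in run 2 alone. Each run is a part of the mice that chose these genes, so a shared direction was favoured in advance. Of these genes 371 were called again in run 1 alone and 323 in run 2 alone. No gene differed in its response between the runs at an adjusted p under 0.05 (edgeR interaction test, 907 at an unadjusted p under 0.05).

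**Figure D1:**
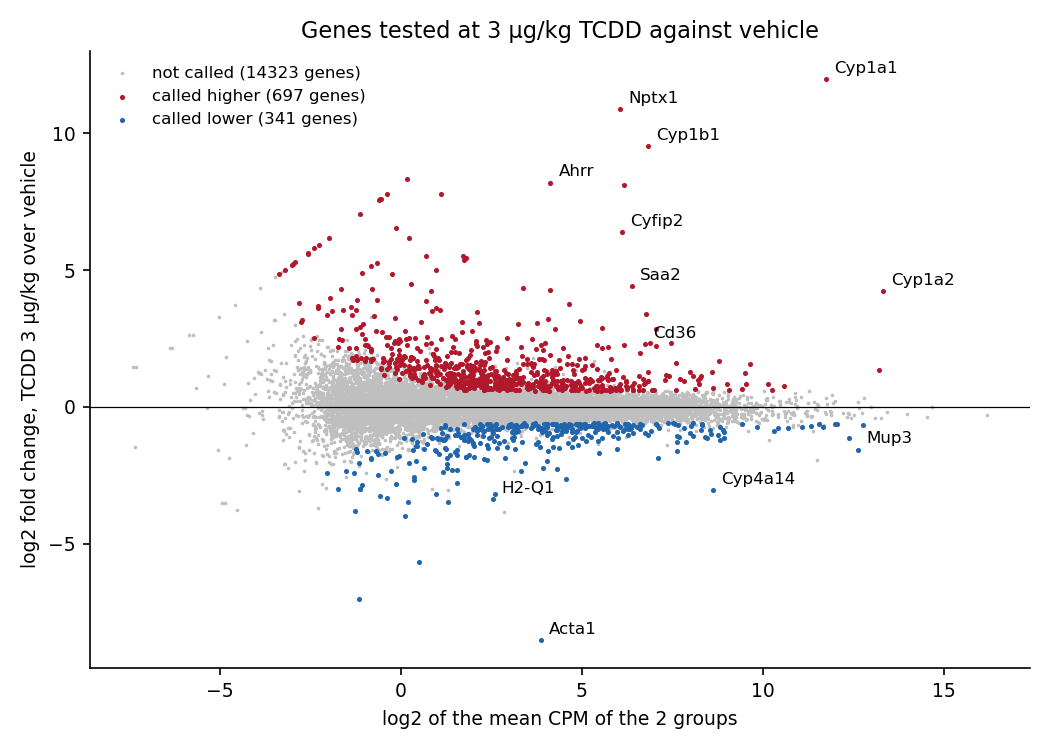
Each point is a gene, with the log2 of its mean CPM over vehicle and 3 μg/kg mice on the horizontal axis and its fitted log2 fold change (3 μg/kg minus vehicle) on the vertical axis. Red points are the 697 genes called higher and blue points the 341 called lower, and the rises reach up to 11.99 (Cyp1a1).

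The AhR battery responded in nearly every measured member. Of 12 genes listed, 11 passed the filter on low counts, 9 of them were called higher, against 4.53% of all genes tested, and none lower. Genes of family 1 of the cytochromes P450 led the list, together with the receptor's own feedback inhibitors. The promoters of 4 of them are shown here to set the binding word beside the values. Each sequence is the 250 bases before the annotated start in RefSeq, build GRCm38.p6, written 5′ to 3′ on the strand of the gene. The core word GCGTG, or CACGC where it lies on the other strand, is in capitals. The windows are chr9:57697363-57697612 (plus strand) for Cyp1a1, chr17:79715062-79715311 (minus strand) for Cyp1b1, chr13:74292332-74292581 (minus strand) for Ahrr and chr3:65528197-65528446 (plus strand) for Tiparp.
Cyp1a1: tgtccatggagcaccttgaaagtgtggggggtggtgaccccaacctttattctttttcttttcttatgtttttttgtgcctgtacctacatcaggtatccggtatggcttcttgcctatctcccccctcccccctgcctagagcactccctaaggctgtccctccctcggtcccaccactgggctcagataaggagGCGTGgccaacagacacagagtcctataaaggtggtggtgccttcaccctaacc
Cyp1b1: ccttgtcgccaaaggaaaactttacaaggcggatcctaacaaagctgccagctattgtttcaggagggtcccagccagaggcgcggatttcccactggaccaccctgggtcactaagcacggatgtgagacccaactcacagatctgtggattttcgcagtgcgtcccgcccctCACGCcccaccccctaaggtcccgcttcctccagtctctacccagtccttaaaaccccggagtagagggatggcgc
Ahrr: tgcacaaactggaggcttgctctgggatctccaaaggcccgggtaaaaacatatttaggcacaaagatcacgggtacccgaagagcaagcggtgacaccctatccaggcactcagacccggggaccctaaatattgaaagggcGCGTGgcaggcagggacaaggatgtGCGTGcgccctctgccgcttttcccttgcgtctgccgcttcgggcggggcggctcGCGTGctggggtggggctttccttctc
Tiparp: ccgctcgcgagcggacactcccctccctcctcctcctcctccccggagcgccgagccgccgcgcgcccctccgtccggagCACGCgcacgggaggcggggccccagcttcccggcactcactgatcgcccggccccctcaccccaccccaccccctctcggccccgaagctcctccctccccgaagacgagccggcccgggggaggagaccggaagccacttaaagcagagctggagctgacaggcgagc
The word lay 54 bases before the start in Cyp1a1, 76 in Cyp1b1 and 170 in Tiparp, and it occurred 3 times in Ahrr, at 107, 82 and 27 bases. The 250-base window of Cyp1a2 (chr9:57683656-57683905, minus strand) held none, and neither did that of Nqo1. Across all 32851 RefSeq windows of this length, 28.2% held the word on either strand. It was present in 32.5% of the 652 windows of genes called higher, 29.7% of the 323 windows of genes called lower and 42.6% of the 13225 windows of tested genes that were not called. The longer word TNGCGTG, which contains the core, was found in 4.91% of the windows of higher genes and 6.16% of those not called. These are matches of letters in a short window and not binding sites.

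Cyp1a1, which oxidises planar aromatic compounds, was at 1.74, 1.62, 2.33, 0.979 and 1.65 CPM in vehicle mice 1 to 5 and at 6943, 5294, 6370, 7355 and 8106 CPM in the 3 μg/kg mice. No treated mouse came near the vehicle range. Its mean rose 4063-fold, from 1.66 ± 0.48 to 6814 ± 1059 CPM (SD, n = 5), a log2 fold change of 11.99 ± 0.27 (SE) with an adjusted p of 4.25e-30 in the edgeR quasi-likelihood test. Cyp1a2, the liver P450 that metabolises caffeine and binds TCDD itself, was at 899, 901, 1089, 1027 and 1232 CPM in vehicle and 19670, 14930, 17360, 20960 and 24180 CPM at 3 μg/kg. It was already abundant in every vehicle mouse, and the groups did not overlap. The rise was 18.9-fold (log2 4.24 ± 0.15 SE, edgeR adjusted p 6.44e-23). Cyp1b1, which hydroxylates estradiol and aromatic hydrocarbons, was at 0.0995, 0.684, 0.194, 0.49 and 0.0716 CPM in vehicle and at 195, 228, 269, 238 and 201 CPM at 3 μg/kg. The treated mice were within a narrow range, far from vehicle, and the mean rose 732-fold (log2 9.52 ± 0.35 SE, edgeR adjusted p 1.43e-22). Because Cyp1a1 and Cyp1a2 are close paralogs and reads mapping to several places were not counted, the level of each may be understated.

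The feedback inhibitors of the receptor rose too. Ahrr, the AhR repressor that competes for ARNT, was at or under 3 counts in every vehicle mouse and at 38.6, 20.2, 30.4, 38 and 47.5 CPM at 3 μg/kg. Measured against the floor of 3 counts per library, that is an increase of at least 183-fold (edgeR adjusted p 1.85e-16). Tiparp, an ADP-ribosyltransferase that modifies the AhR and lowers its activity, was at 7.31, 3.79, 4.85, 5.11 and 3.8 CPM in vehicle and 19.9, 42, 21.3, 21.8 and 15.9 CPM at 3 μg/kg. All treated mice lay above all vehicle mice, and mouse 2 was the highest of them. The rise was 4.82-fold (log2 2.27 ± 0.26 SE, edgeR adjusted p 6.68e-08). The receptor complex itself was not called in any of its 5 members. Ahr averaged 39.6 ± 3.03 CPM in vehicle and 47 ± 15.7 CPM at 3 μg/kg, and its partner Arnt 40.5 ± 6.43 and 45.7 ± 10.1 CPM (SD, n = 5).

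Smaller rises were measured in the remaining battery genes. Nqo1, a quinone reductase, rose 3.35-fold from 6.44 ± 0.874 to 21.6 ± 6.36 CPM. Xdh, which produces uric acid from xanthine, rose 2.16-fold from 198 ± 12.1 to 428 ± 68.1 CPM. Ugdh, which makes the UDP-glucuronate used in glucuronidation, rose 2.19-fold from 170 ± 11.8 to 373 ± 55.3 CPM (SD, n = 5 for all 3). For these enzymes, and for Nfe2l2 (1.79-fold), which encodes the oxidant-responsive factor NRF2, the 5 treated mice all lay above the 5 vehicle mice and no single mouse decided the call. Ugt1a6a (log2 0.45) and Cyp2s1 (log2 -0.34) were not called, and Aldh3a1, a classical target in other tissues, had at most 2 counts in any of the 10 libraries. All 9 rises were called again without both libraries that stood apart.

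**Figure D2:**
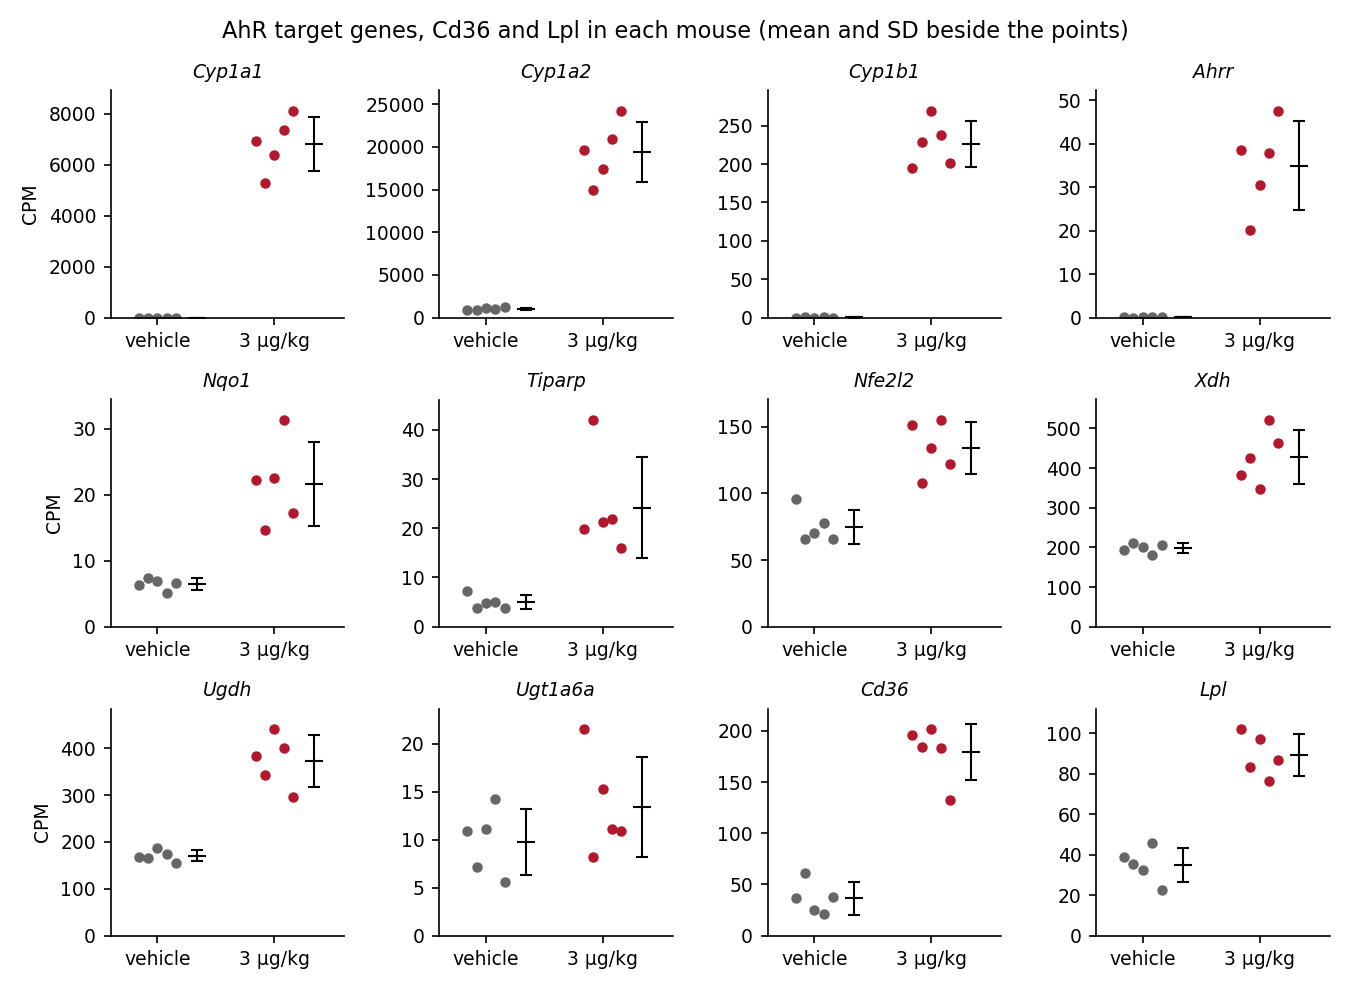
CPM of each mouse, vehicle and 3 μg/kg, for 10 genes of the AhR battery and 2 lipid uptake genes. Each panel has its own vertical axis, points are single mice, and the mark beside them is the mean with its SD (n = 5). The groups are apart in every panel but that of Ugt1a6a, which was not called.

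Outside the battery, the naming rule brought up further genes with very large rises, several of them hardly transcribed in vehicle livers. Nptx1, a neuronal pentraxin, was at 0.0995, 0, 0, 0 and 0.215 CPM in vehicle and 118, 50.7, 91.3, 203 and 199 CPM at 3 μg/kg, an increase of at least 694-fold. It was far above vehicle in every treated mouse, with treated mouse 2 the lowest. Cyfip2, a subunit of the WAVE complex that drives actin branching, was at 112 to 166 CPM in treated mice against 1.12 to 1.94 CPM in vehicle (83.6-fold). Fabp12, of the fatty acid binding protein family, rose 45.4-fold to 6.48 ± 1.43 CPM, Insl6, of the insulin and relaxin family, 43.3-fold to 6.78 ± 0.952 CPM, and Ism2 41.3-fold to 6.58 ± 1.55 CPM. In these 3 genes the vehicle mice held few counts (means of 0.124 to 0.168 CPM), so the folds rest on small denominators.

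Among abundant transcripts, Selenbp1, a selenium-binding methanethiol oxidase, rose 2.97-fold from 402 ± 63.9 to 1191 ± 186 CPM (log2 1.57 ± 0.15 SE). Cyb5a, the microsomal cytochrome b5 that donates electrons to P450 enzymes, rose 1.77-fold from 824 ± 45.5 to 1455 ± 151 CPM, and Cyp2a5, a coumarin hydroxylase, rose 2.36-fold from 432 ± 65.9 to 1020 ± 231 CPM (SD, n = 5 for all). Htatip2, an oxidoreductase and nuclear transport inhibitor, was at 43.9, 48.1, 53.3, 50.3 and 42.5 CPM in vehicle and 242, 208, 224, 201 and 225 CPM at 3 μg/kg. The spread within each group was small, and the 4.62-fold rise had an edgeR adjusted p of 2.26e-19. Of 15 glutathione S-transferases, which conjugate electrophiles, Gstm3 (2.44-fold) and Gsta1 (3.26-fold) rose and none fell, beside the 4.53% of all genes called higher. Of 12 NRF2 targets 2 rose, beside the same 4.53%. These were Hmox1, the heme-degrading oxygenase (1.97-fold), lost without mouse 2 or mouse 5 of the 3 μg/kg group (adjusted p up to 0.07), and Srxn1, which repairs oxidised peroxiredoxins (1.69-fold), lost in 7 of 10 fits that left out 1 mouse (adjusted p 0.032 to 0.08). Of 8 P450 genes driven by PXR and CAR, Cyp2b10 rose 2.81-fold and Cyp3a25 fell 1.53-fold, and these calls were lost in 4 and 3 of those 10 fits.

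Some genes of fat uptake rose and some of fat synthesis fell. Of 14 genes of lipid uptake and droplets, 3 rose and none fell, where 4.53% of all genes tested were called higher. The median log2 fold change of the list was 0.01. Cd36, the fatty acid translocase, was at 37.3, 61.5, 25, 20.7 and 37.6 CPM in vehicle and 196, 184, 202, 184 and 133 CPM at 3 μg/kg. All treated mice were above all vehicle mice, with mouse 5 the lowest of them. The rise was 4.93-fold (log2 2.30 ± 0.26 SE, edgeR adjusted p 3.32e-08). Lpl, lipoprotein lipase, rose 2.55-fold from 34.9 ± 8.54 to 89 ± 10.4 CPM, and Pparg, an adipogenic nuclear receptor known to activate both genes, rose 2.44-fold from 7.96 ± 0.986 to 19.4 ± 4 CPM (SD, n = 5). Plin2, the coat protein of lipid droplets, was not called (log2 -0.01).

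Of 14 fatty acid synthesis genes, 3 fell and none rose, with a median log2 fold change of -0.47 against 0 over all genes tested. Mlxipl, which encodes the carbohydrate response factor ChREBP, was at 723, 436, 520, 600 and 525 CPM in vehicle and 352, 385, 396, 297 and 247 CPM at 3 μg/kg, and fell 1.67-fold (edgeR adjusted p 0.00211). The groups did not overlap. The elongase Elovl6 (log2 -0.80) and the lipase Pnpla3 (log2 -2.25) were called as well, but each had overlapping groups. In both, vehicle mouse 1 was high (156 and 8.26 CPM), and without it the adjusted p was 0.25 for Elovl6 and 0.31 for Pnpla3. Elovl6 was lost in 7 of the 10 fits that left out 1 mouse. Without mouse 2 of the 3 μg/kg group 1 of the 14 was called lower.

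Of 20 fatty acid oxidation genes, 2 fell and 1 rose, where 2.22% of all genes tested were called lower and 4.53% higher, so the rise is near the share of all genes. Cyp4a14, an omega-hydroxylase induced by PPARα, was at 1132, 1110, 343, 287 and 651 CPM in vehicle and 146, 106, 92.5, 72.5 and 6.6 CPM at 3 μg/kg. Both groups were spread widely and did not overlap, and the fall was 8.31-fold (log2 -3.06 ± 0.67 SE, edgeR adjusted p 0.00189). Acaa1b, a peroxisomal thiolase, fell 1.83-fold. Fgf21, the fasting hormone of the liver, was at 1.09, 0.684, 0.906, 0.49 and 0.0716 CPM in vehicle and 2.84, 6.21, 5.15, 12.1 and 3.07 CPM at 3 μg/kg, with every treated mouse above every vehicle mouse. It rose 8.64-fold (edgeR adjusted p 0.000964) from low counts. Cyp4a14 and its neighbour Cyp4a10 share sequence, and reads mapping to several places were not counted, so the level of each may be understated.

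Some genes of glucose output and nitrogen disposal fell. Of 13 gluconeogenesis and glycogen genes, 3 fell, none rose and 12 had an estimate below 0, with a median of -0.60, where 2.22% of all genes tested were called lower. The hepatocyte markers moved with this list (3 of 7 called lower, 7 of 7 below 0, median -0.64), and their part in it was not tested. G6pc, the glucose-6-phosphatase that releases glucose, was at 656, 602, 384, 664 and 597 CPM in vehicle and 385, 179, 341, 224 and 308 CPM at 3 μg/kg. The lowest vehicle mouse (mouse 3) lay level with the highest treated mouse, so the groups overlapped slightly. The fall was 2.02-fold (log2 -1.01 ± 0.25 SE, edgeR adjusted p 0.00611). Tat, tyrosine aminotransferase, fell 1.71-fold and Gys2, the liver glycogen synthase, 1.53-fold. Without mouse 2 of the 3 μg/kg group neither was called (log2 -0.63 with an adjusted p of 0.063, and -0.53), and 1 of the 13 genes was. Without vehicle mouse 4 both calls were lost as well. Pck1, the cytosolic PEP carboxykinase, was at 1604 ± 619 and 690 ± 238 CPM and missed the threshold (log2 -1.22, edgeR adjusted p 0.055).

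Of 8 urea cycle genes 2 fell, where 2.22% of all genes tested were called lower. The median log2 fold change of the list was -0.36, against -0.64 for the hepatocyte markers, whose part in it was not tested. Cps1 is in both lists. Cps1, which commits ammonia to urea, was at 5497, 4712, 4147, 5254 and 5278 CPM in vehicle and 2881, 2689, 3057, 3779 and 3563 CPM at 3 μg/kg, without overlap. The fall was 1.56-fold (log2 -0.64 ± 0.17 SE, edgeR adjusted p 0.00893), and without mouse 2 of the 3 μg/kg group it was under the fold threshold (log2 -0.58). Otc, the enzyme of the following step, fell 1.78-fold from 479 ± 53.9 to 268 ± 34.9 CPM. Of 10 genes of methionine and sulfur amino acids, Csad and Mat1a fell, beside the same 2.22%. Csad, which commits cysteine to taurine, was at 192, 264, 417, 333 and 288 CPM in vehicle and 138, 60.5, 139, 86.9 and 62.1 CPM at 3 μg/kg. Every treated mouse was below every vehicle mouse, a 3.07-fold fall (edgeR adjusted p 0.000429). Mat1a, which makes S-adenosylmethionine, fell 1.69-fold, a call lost without vehicle mouse 5 (adjusted p 0.062).

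**Figure D3:**
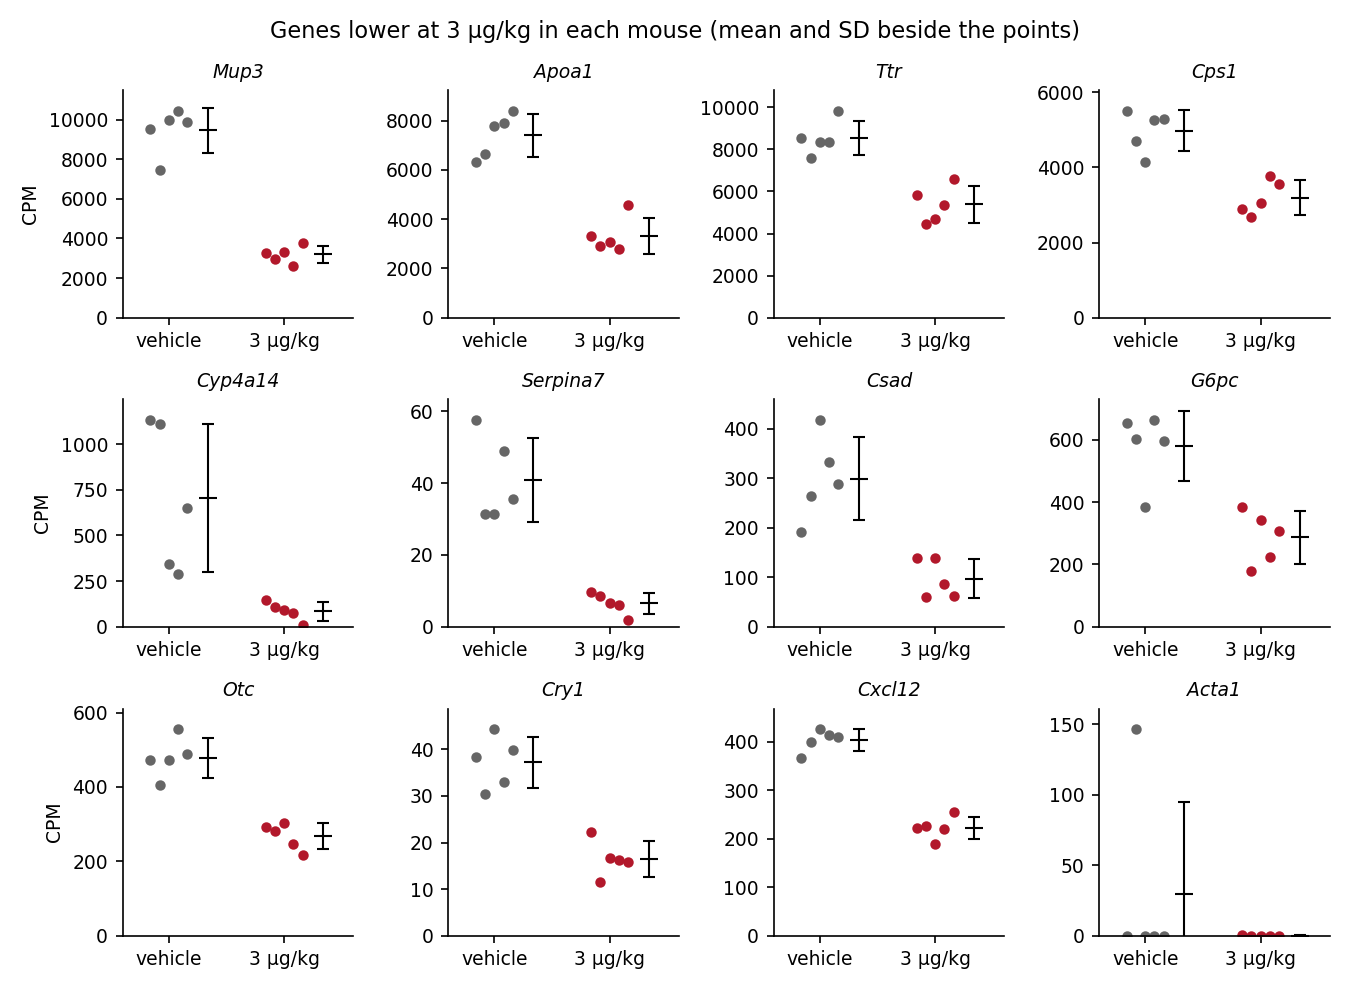
CPM of each mouse, vehicle and 3 μg/kg, for 12 genes called lower. Each panel has its own vertical axis, points are single mice and the mark beside them is the mean with its SD (n = 5). The groups are apart in every panel but those of G6pc and Acta1, and in the Acta1 panel 1 vehicle mouse stands at 146 CPM with all others near 0.

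Of the 5 falls of largest CPM difference, 4 were in genes of secreted liver proteins (Mup3, Apoa1, Ttr and Ahsg) and the other was Cps1. Apoa1, the main protein of high-density lipoprotein, was at 6317, 6667, 7779, 7908 and 8388 CPM in vehicle and 3327, 2910, 3059, 2771 and 4572 CPM at 3 μg/kg. The groups did not overlap, and the fall was 2.23-fold (log2 -1.16 ± 0.28 SE, edgeR adjusted p 0.00439). Ttr, the carrier of thyroxine and retinol binding protein, fell 1.58-fold from 8537 ± 804 to 5387 ± 864 CPM. Ahsg, fetuin-A, fell 1.53-fold from 5138 ± 474 to 3350 ± 351 CPM, a call lost in 3 of the 10 fits that left out 1 mouse (adjusted p 0.022 to 0.059). Serpina7, the thyroxine-binding globulin, was at 57.5, 31.3, 31.5, 48.8 and 35.5 CPM in vehicle and 9.56, 8.65, 6.53, 6.12 and 1.99 CPM at 3 μg/kg. All treated mice were below all vehicle mice, a 6.22-fold fall (edgeR adjusted p 2.08e-06). Igfbp2, a binding protein of insulin-like growth factors, fell 2.31-fold from 627 ± 71.1 to 272 ± 64.7 CPM, the single call among 13 genes of the growth hormone and IGF axis.

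Mup3, a major urinary protein secreted by male mice, was at 9532, 7459, 9982, 10430 and 9865 CPM in vehicle and 3274, 2972, 3329, 2603 and 3774 CPM at 3 μg/kg. Although the groups were far apart, the 2.96-fold fall only just passed the threshold (log2 -1.57 ± 0.52 SE, edgeR adjusted p 0.0479) and was lost in all 10 fits that left out 1 mouse (adjusted p 0.056 to 0.1). The spread behind this SE was estimated over all 40 libraries, and with the 2 compared groups fitted alone Mup3 was still called. Mup3 was the single call among 9 Mup genes tested, whose near-identical sequences make the counts of each uncertain. Of 18 male-biased liver genes 1 fell, Susd4 (3.10-fold), which is near the 2.22% of all genes called lower. Among the female-biased genes reported here, Cyp2b13 (12.2-fold) and Fmo2 (1.73-fold) rose and Cyp4a10 fell 2.19-fold, and the Fmo2 and Cyp4a10 calls were lost in 7 and 3 of the 10 fits that left out 1 mouse (adjusted p up to 0.13 and 0.063).

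Other large or well-separated falls were spread over unrelated functions. H2-Q1, a non-classical class I MHC gene with close paralogs, fell 10.4-fold from 10.6 ± 3.56 to 1 ± 0.898 CPM, and Hcn3, a pacemaker channel, 9.03-fold from 11 ± 2.68 to 1.21 ± 0.697 CPM. Cela1, an elastase, fell 4.79-fold, Acnat2, a peroxisomal acyltransferase, 4.75-fold, and Adam11 4.10-fold. Chrna4, a nicotinic receptor subunit, was called lower (3.90-fold) with overlapping groups, and its call was lost in 7 of the 10 fits that left out 1 mouse (adjusted p 0.029 to 0.26). Cxcl12, the chemokine that retains hematopoietic cells, was at 368, 399, 426, 415 and 411 CPM in vehicle and 222, 226, 189, 219 and 254 CPM at 3 μg/kg. The spread in either group was far smaller than the gap between them, and the 1.82-fold fall had an edgeR adjusted p of 4.49e-09. Gm4952 (2.06-fold) and Camk2n1, an inhibitor of CaMKII (1.74-fold), were as well separated. Of 18 clock genes, 3 fell and 16 had an estimate below 0, where 2.22% of all genes tested were called lower. Cry1, a repressor of the clock, fell 2.25-fold from 37.2 ± 5.51 to 16.5 ± 3.85 CPM. Tef was lost as a call without mouse 2 (log2 -0.54) or mouse 3 of the 3 μg/kg group, and Bhlhe40 without vehicle mouse 1 (adjusted p 0.072).

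A pair of muscle genes was called lower as well, and vehicle mouse 2 was the highest vehicle mouse in both. Acta1, skeletal muscle actin, was at 0, 146, 0.0647, 0 and 0 CPM in vehicle and at most 0.181 CPM at 3 μg/kg. Without vehicle mouse 2 its log2 fold change was 1.82 in the other direction (adjusted p 0.61), so the fall of Acta1 rests on that mouse. Tpm2, a muscle tropomyosin, was at 59.5 CPM in the same mouse and 3.43 to 7.18 CPM in the other vehicle mice. Its log2 fold change went from -2.35 to -0.90 without that mouse, and it was still called (adjusted p 0.048). Without both libraries that stood apart Tpm2 was not called (log2 -0.87, edgeR adjusted p 0.092).

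The immune question was which white cell genes differed. MHC class II genes, which present antigen on macrophages, dendritic cells and B cells, were called higher in 7 of 7 members, with a median log2 fold change of 1.97 against 0 over all genes. H2-Ab1, a class II beta chain, was at 21.4, 18.2, 17.4, 12.2 and 25.1 CPM in vehicle and 52.1, 98, 52.5, 104 and 127 CPM at 3 μg/kg. All treated mice lay above all vehicle mice. The rise was 4.60-fold (log2 2.20 ± 0.33 SE, edgeR adjusted p 7.88e-06). H2-Aa, the matching alpha chain, was at 19.6, 17, 13.1, 12.6 and 24.2 CPM in vehicle and 52.8, 83.4, 44.4, 96.1 and 108 CPM at 3 μg/kg, and rose 4.45-fold. Mice 1 and 3 were the lowest of the treated group in both genes. Cd74, the invariant chain, was at 44.3, 39.4, 35.9, 27.9 and 51.2 CPM in vehicle and 101, 173, 96.7, 186 and 224 CPM at 3 μg/kg, a 3.93-fold rise. The same 2 mice were again the lowest of the treated group. Ciita, the transactivator that switches class II genes on, was at 1.49, 1.37, 1.75, 1.68 and 1.65 CPM in vehicle and 4.48, 6.57, 4.33, 8.04 and 6.34 CPM at 3 μg/kg, 3.75-fold higher. H2-Eb1 (4.84-fold) and the peptide-loading genes H2-DMa (2.91-fold) and H2-DMb1 (3.22-fold) completed the list. The median over the list was 1.72 in run 1 alone and 2.38 in run 2 alone, and all 7 were called without either or both of the libraries that stood apart.

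Markers of liver macrophages were higher at the same time. Of 13 Kupffer cell markers 9 rose and none fell, 8 without vehicle mouse 2, 9 without mouse 2 of the 3 μg/kg group and 6 without both. Adgre1, the F4/80 antigen, was at 10.2, 6.78, 6.99, 5.04 and 6.8 CPM in vehicle and 13.2, 19.4, 11.7, 16.2 and 25.7 CPM at 3 μg/kg. Csf1r, the receptor of macrophage colony-stimulating factor, was at 34.5, 28.9, 27.1, 28 and 32.8 CPM in vehicle and 51.9, 62.9, 43.9, 67.8 and 90.7 CPM at 3 μg/kg. The groups did not overlap in either gene, and the rises were 2.39-fold and 2.10-fold (edgeR adjusted p 0.000313 and 1.31e-05). Cd5l, a macrophage scavenger protein, rose 2.15-fold and C1qa, of complement C1q, 1.97-fold. Clec4f, the lectin that defines Kupffer cells, rose 1.54-fold, a call lost without mouse 5 of the 3 μg/kg group or vehicle mouse 4 (adjusted p up to 0.06), and Vsig4 (log2 0.47) and Timd4 (log2 0.72) were not called. The 13 markers summed to 300 to 411 CPM in vehicle and 420 to 719 CPM at 3 μg/kg, while the 7 class II genes summed to 67.4 to 125 and 252 to 582 CPM. In bulk liver RNA more cells of a type and more RNA per cell cannot be told apart, and the part of macrophage number in the class II values was not tested.

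Among other cell types, the markers of recruited and lipid-associated macrophages gave 3 rises in 12 (Itgax 3.50-fold, Lgals3 2.56-fold and Clec7a 3.06-fold) and 1 fall (Cd9, 1.75-fold, lost in 4 of the 10 fits that left out 1 mouse, with adjusted p up to 0.059). Of 11 endothelial markers, Cdh5 (1.69-fold) and Gpr182 (1.63-fold) rose, where 4.53% of all genes tested were called higher. Of 12 stellate cell and fibroblast markers, Col1a1 and Reln were called higher, calls lost in 6 and 3 of the 10 fits that left out 1 mouse (adjusted p up to 0.11 and 0.12). Without vehicle mouse 2 there were 5 calls, and its Col1a1 level of 22.8 CPM was above the 6.52 to 9.06 CPM of the other vehicle mice. None was called among 14 lymphocyte, 6 dendritic cell, 7 cholangiocyte and 5 erythroid markers tested. The median log2 fold change was nonetheless 0.84 for the lymphocyte markers (12 of 14 above 0) and 1.06 for the dendritic cell markers (5 of 6). It was -0.19 for the cholangiocyte and -0.24 for the erythroid markers. All 15 lymphocyte genes listed, with Ncr1 below the filter among them, summed to 7.65 to 12.7 CPM in vehicle and 12.1 to 18.7 CPM at 3 μg/kg. The 6 dendritic cell genes summed to 7.77 to 11.9 CPM in vehicle and 9.19 to 12.6 CPM at 3 μg/kg.

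Several calls of acute phase, chemokine and neutrophil genes rested largely on mouse 2 of the 3 μg/kg group. Saa2, a serum amyloid A that is secreted in acute inflammation, was at 4.68, 8.09, 8.09, 7.14 and 9.6 CPM in vehicle and 29.4, 657, 30, 48.3 and 29.3 CPM at 3 μg/kg. All 5 treated mice lay above all vehicle mice, but mouse 2 was far above the other treated mice. The call (21.2-fold, edgeR adjusted p 0.00575) was lost without it (log2 2.19, adjusted p 0.15). Cxcl1, a neutrophil chemoattractant, was at 219 CPM in that mouse and 2.42 to 5.42 CPM in the other 4, against 2.14 to 5.51 CPM in vehicle. Without mouse 2 its log2 fold change went from 3.75 to 0.17 (adjusted p 0.91). Of 16 acute phase genes 4 were called higher, and none without mouse 2. Of 5 neutrophil markers tested 3 were called higher, and none without it, with the median log2 fold change of the list going from 2.32 to 0.60. Of 21 chemokines and cytokines 6 were higher and Cxcl12 was lower, and without mouse 2 a single rise was left. Cxcl14, a chemokine of epithelia, rose 3.06-fold from 1.15 ± 0.356 to 3.51 ± 0.515 CPM with no overlap between groups, a call kept in all 10 fits that left out 1 mouse. All 10 neutrophil markers listed, tested or below the filter, summed to 2.14 to 4.08 CPM in vehicle and 3.83 to 32.6 CPM at 3 μg/kg. Ly6g had no more than 1 count and Mpo no more than 2 in any of the 10 vehicle and 3 μg/kg libraries. The part of neutrophils in the chemokine values was not tested.

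**Figure D4:**
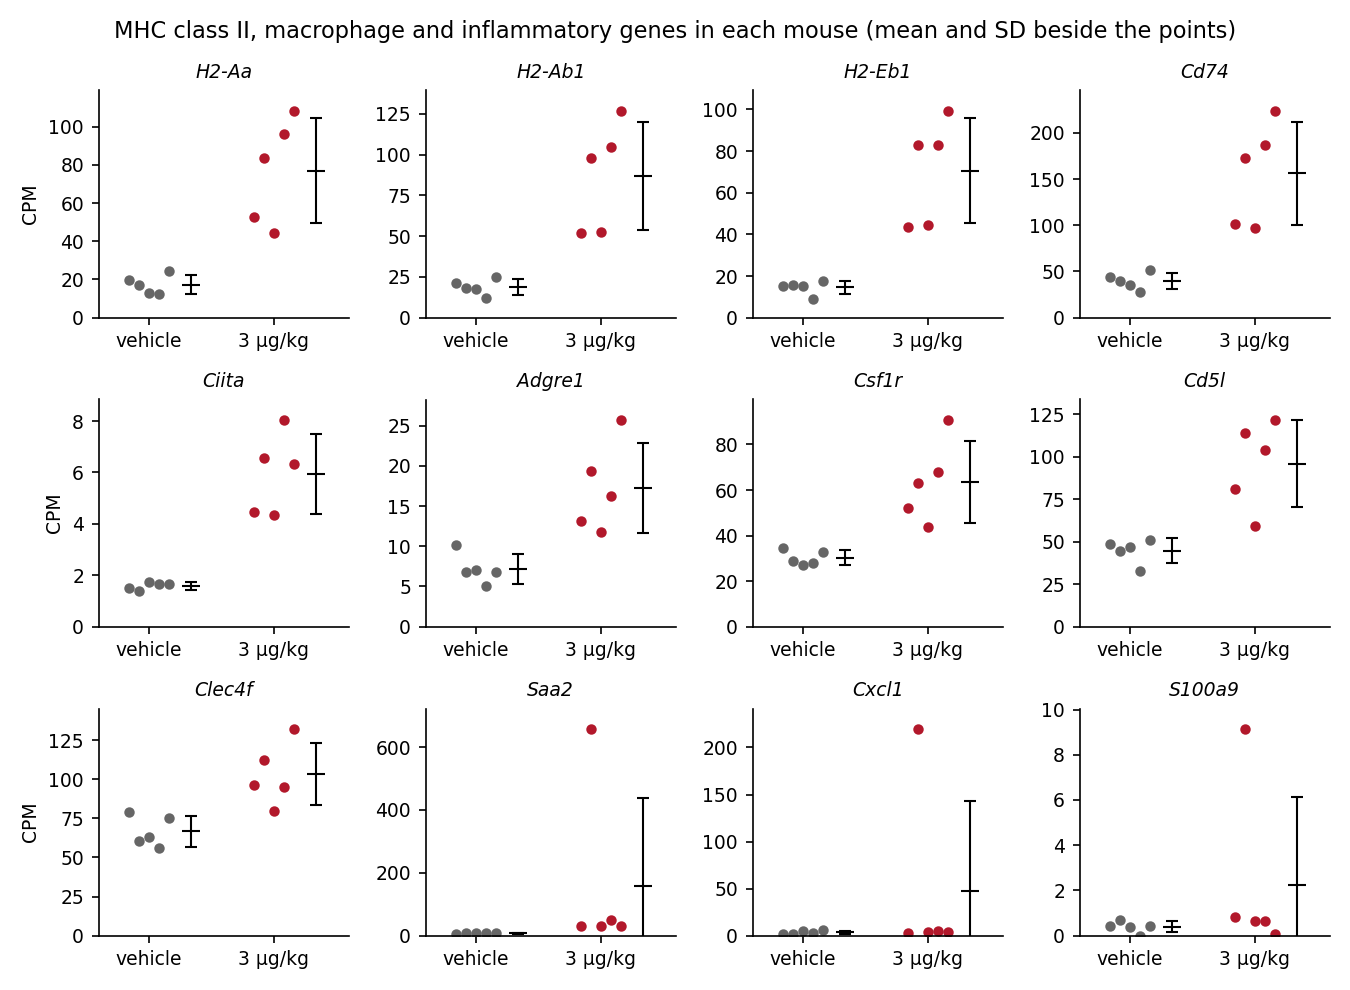
CPM of each mouse, vehicle and 3 μg/kg, for 5 MHC class II genes, 4 macrophage markers and the inflammatory genes Saa2, Cxcl1 and S100a9. Each panel has its own vertical axis, points are single mice and the mark beside them is the mean with its SD (n = 5). In the class II panels all treated mice lie above all vehicle mice, whereas in the panels of Cxcl1 and S100a9 a single treated mouse (219 and 9.13 CPM) lies far from the rest.

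Interferon-stimulated genes gave 4 rises in 17 and no fall, where 4.53% of all genes tested were called higher. The list did not move as a whole, with 6 of 17 estimates below 0 and a median log2 fold change of 0.10. That median was -0.13 in run 1 alone and 0.46 in run 2 alone. Without both libraries that stood apart 2 were called higher and 1 lower. Oasl2, an antiviral oligoadenylate synthetase-like protein, rose 1.79-fold with no overlap between the groups, and the GTPase Gbp2 rose 2.73-fold with overlap. Oas1a and Gbp3 were called as well but lost in 7 and 5 of the 10 fits that left out 1 mouse (adjusted p up to 0.15 and 0.11). Acod1, which makes itaconate in macrophages, was at 0 to 0.07 CPM in vehicle and 0.126 to 1.07 CPM at 3 μg/kg (edgeR adjusted p 0.00198). These are a few counts per library, and Acod1 was the single call among 3 itaconate genes.

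The study set out to examine propionyl-CoA and cobalamin metabolism. The paper reported repression of propionyl-CoA genes at its highest dose, with fold changes taken from another data set. It drew on enzyme activity and on metabolite and cobalamin levels as well. The values at 3 μg/kg given here do not bear on that dose. None of 9 propionyl-CoA genes was called at 3 μg/kg, with log2 fold changes between -0.31 and 0.14. Pcca and Pccb, the subunits of propionyl-CoA carboxylase, were at 84.6 ± 8.98 and 192 ± 16.4 CPM in vehicle and 71.9 ± 7.15 and 176 ± 10.4 CPM at 3 μg/kg (SD, n = 5). Mut, the mitochondrial methylmalonyl-CoA mutase, was at 151 ± 23.5 and 121 ± 28.5 CPM (log2 -0.31 ± 0.20 SE, edgeR adjusted p 0.364). None of 11 genes of cobalamin uptake and processing was called either. Lists of bile acid synthesis (11 genes), cholesterol synthesis (21), retinoid storage (11), complement and coagulation (18), hepatocyte transcription factors (13) and p53 targets (14) gave no call. Adjusted p was under 0.05 without the fold threshold for 2 of the bile acid genes, Baat (log2 -0.55) and Acox2 (log2 0.33), 1 retinoid gene (Aldh1a1) and 1 complement gene (C1s1). Of 10 bile acid and anion transporters tested, the uptake carrier Slco1a4 fell 2.36-fold and the export pump Abcc3 rose 1.79-fold.

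The neighbouring doses placed these values. The comparisons of 1, 3 and 10 μg/kg with vehicle share the 5 vehicle mice, and the 3 μg/kg mice enter both direct contrasts below. Against vehicle, 428 genes were called at 1 μg/kg (2.78%) and 3347 at 10 μg/kg (21.8%, with 13.6% higher and 8.13% lower). Between 1 and 3 μg/kg 9 genes were called (0.0585%), all higher at 3, by edgeR, with 853 (5.55%) at an unadjusted p under 0.05 and 22 calls by DESeq2. Between 3 and 10 μg/kg 1041 genes were called (6.77%), 681 higher at 10 (4.43%) and 360 lower (2.34%).

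The 9 genes that separated 3 from 1 μg/kg were Cyp1b1, Tiparp, Mfge8, Col9a2, Serpinb6a, Uap1l1, Arhgap10, Fabp12 and Ovol1. Cyp1b1 averaged 102 ± 24.8, 226 ± 30 and 662 ± 188 CPM at 1, 3 and 10 μg/kg, a difference of 1.15 ± 0.22 (log2, SE) between 3 and 1 with an edgeR adjusted p of 0.011. Tiparp averaged 8.4 ± 1.65, 24.2 ± 10.2 and 84.5 ± 38.2 CPM at the same doses (log2 1.52 ± 0.25 SE between 3 and 1, adjusted p 0.0014). Both were higher at each dose than at the one before. Mfge8, which bridges macrophages to dying cells, was at 11.4, 12.7, 11.8, 9.72 and 10.5 CPM in vehicle and 67.1, 75.4, 48.8, 94.7 and 128 CPM at 3 μg/kg, where all 5 treated mice were above vehicle. It averaged 24.8 ± 7.5 CPM at 1 and 140 ± 29.9 CPM at 10 μg/kg, and 3 exceeded 1 by 1.74 ± 0.24 (log2, SE, edgeR adjusted p 0.00011). Col9a2, a cartilage collagen chain, had at most 1 count in any vehicle mouse and 2.12, 1.97, 3.7, 5.42 and 8.26 CPM at 3 μg/kg, at least 22.5-fold above vehicle. Its mean was 0.238 CPM at 1 and 83.8 CPM at 10 μg/kg. Serpinb6a, an intracellular serine protease inhibitor, averaged 14.8, 36.5 and 127 CPM at the 3 doses. Ovol1, an epithelial zinc finger factor, had no count in the vehicle mice and averaged 0.0942, 1.55 and 6.64 CPM at 1, 3 and 10 μg/kg. In contrast, Cyp1a1 averaged 5976 ± 584, 6814 ± 1059 and 6607 ± 711 CPM at these doses and Cyp1a2 17050, 19420 and 21940 CPM, and neither was called between 3 and 1 or between 10 and 3.

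**Figure D5:**
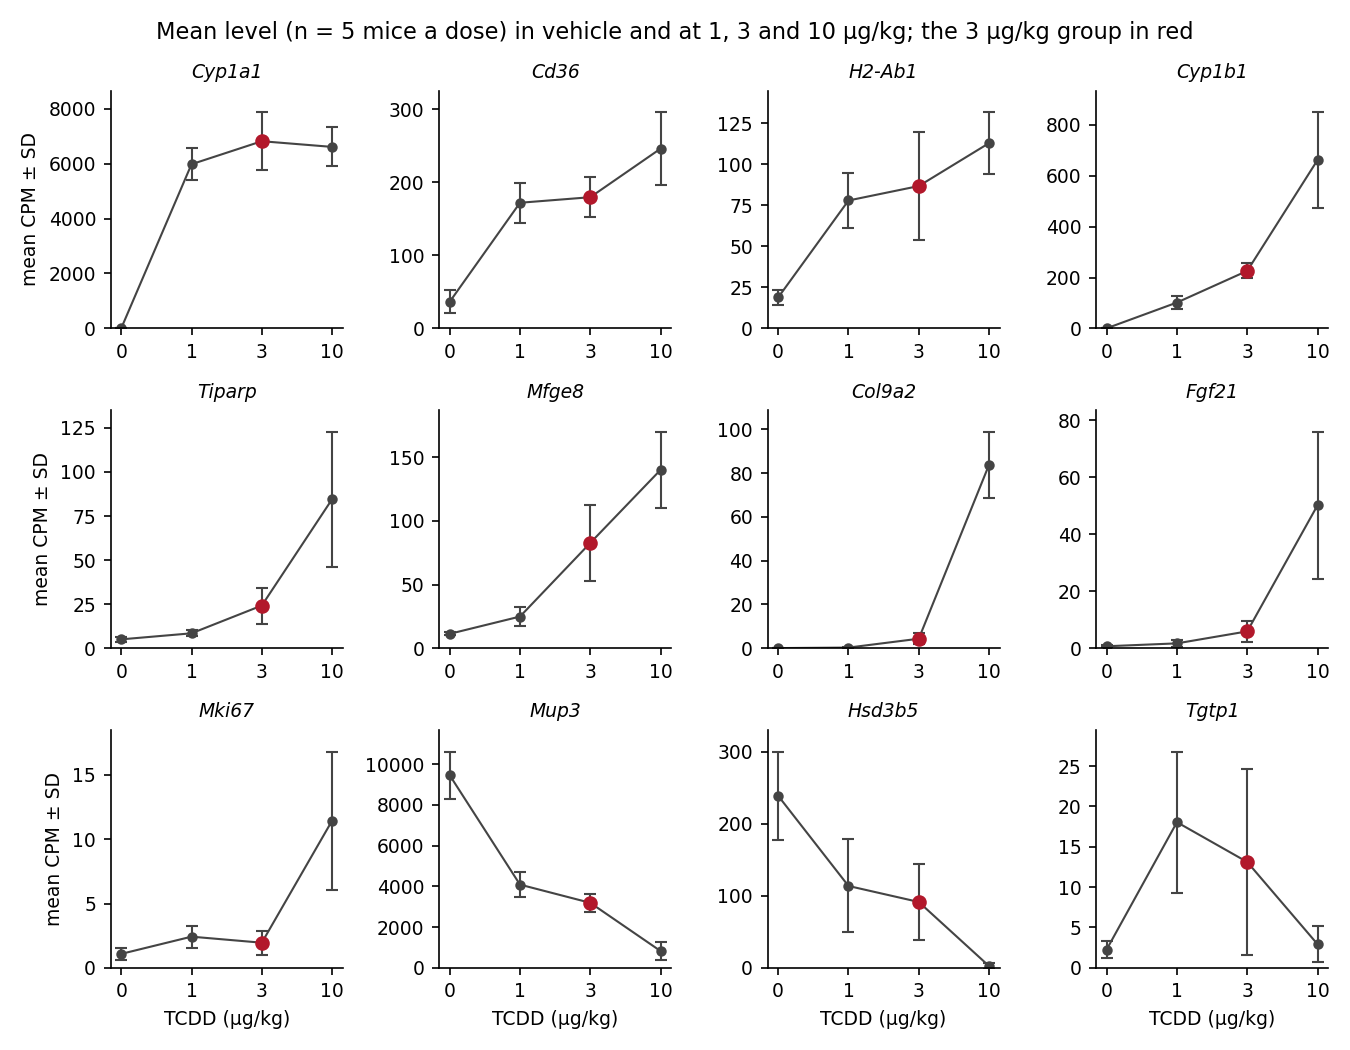
Mean CPM with SD (n = 5 mice per dose) at 0, 1, 3 and 10 μg/kg for 12 genes, with the 3 μg/kg value in red. The doses are evenly spaced steps and not to scale, and each panel has its own vertical axis. Cyp1a1 lies between 5976 and 6814 CPM from 1 μg/kg on, Cyp1b1, Tiparp and Col9a2 are higher at each dose, and at 10 μg/kg Mki67 is highest and Mup3 and Hsd3b5 are lowest.

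The contrast with 10 μg/kg showed which gene groups at 3 μg/kg were still short of the higher dose. Of 19 cell cycle genes, 2 were called against vehicle at 3 μg/kg (the replication helicase genes Mcm2 and Mcm3) and 15 at 10 μg/kg, and 14 differed between 3 and 10. The call of Mcm2 at 3 μg/kg was lost without vehicle mouse 1 or vehicle mouse 4 (adjusted p up to 0.074), and both calls were lost with the strand-specific counts (adjusted p 0.086 and 0.071). Mki67, the proliferation antigen, averaged 1.08 ± 0.441 CPM in vehicle, 1.95 ± 0.944 at 3 and 11.4 ± 5.37 CPM at 10 μg/kg (10 minus 3 log2 2.54 ± 0.34 SE, edgeR adjusted p 2.86e-06). Of 18 male-biased genes, 1 was lower at 3 and 12 at 10 μg/kg, and 11 differed between these doses. Hsd3b5, a male-specific steroid reductase, averaged 239 ± 61.4, 91.4 ± 52.8 and 2.42 ± 4.56 CPM in vehicle and at 3 and 10 μg/kg, and was not called at 3 (edgeR adjusted p 0.0713). Of the Mup genes 1 was lower at 3 and 7 at 10 μg/kg, with Mup3 at 824 CPM there. By contrast, none of the 7 MHC class II genes differed between 3 and 10 μg/kg by the same test, and all 7 were already called at 1 μg/kg.

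Of the 1038 genes called at 3 μg/kg, 223 differed between 3 and 10 μg/kg, where 6.77% of all genes did. Both contrasts hold the 3 μg/kg mice, so this share is given without a test. Among them 138 rises were higher still at 10 and 64 falls lower still. Gstm3 was one of the former, at 148 ± 12.4 CPM in vehicle, 362 ± 150 at 3 and 1190 CPM at 10 μg/kg, and Nqo1 reached 42.9 CPM. The other 21 went the opposite way, 14 being higher than vehicle at 3 and lower again at 10, and 7 the reverse. Abcc3, for example, was at 371 ± 68 CPM in vehicle, 662 ± 77.4 at 3 and 438 ± 77.3 CPM at 10 μg/kg.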

How the data were processed

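Livers of 40 mice, 5 per dose, were sequenced, and the 10 libraries of vehicle and 3 μg/kg TCDD were taken by their dose labels. The members and gene lists were chosen with earlier results of these data known. Reads were trimmed (Trimmomatic 0.39) and aligned (STAR 2.7.3a) per the submitters' processing notes, which name GRCm39 and mm10 without saying which was used for what. The annotation is not given in the sources used here. The authors deposited raw counts per gene, of which the unstranded column was used, so overlapping and antisense genes share reads. STAR counts uniquely mapped reads, which lowers close paralogs (Mup, H2, Saa, Cyp4a). The authors also deposited a normalized table of log2 values, which entered limma as it was.

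Genes were filtered by filterByExpr (minimum count 10, minimum total 15), scaled by TMM and fitted in edgeR 4.0.16 (R 4.3.3) with a quasi-likelihood model of all 40 libraries and 1 mean per dose. SE is from the fit. The fold threshold of 1.5 is that of the study, whose posterior probability was replaced by the adjusted p of edgeR. Symbols were matched to 52083 of 55359 gene identifiers. Floors are 3 counts per library (0.191 CPM in vehicle, 0.183 CPM at 3 μg/kg) and cover counting error alone. Replicate libraries differed beyond sampling noise in every pair (lowest chi-square per degree of freedom 13.5), and p-values measure the spread between these livers. The test was tried on simulated data.

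To be named, a called gene needed a symbol, a mean of 100 counts or more in whichever group was higher, and all 5 treated mice on one side of the vehicle mean. The rule took the 10 largest rises and falls, the 5 rises and falls of lowest p and the 5 of largest CPM difference. Of these 33 genes 21 had a RefSeq promoter window, and 6 of them held GCGTG. An item that the rule took is not reported here. Further genes came from the lists, and those named for 1 and 10 μg/kg were chosen after their values were seen.

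Alternatives were DESeq2 1.42.0, limma 3.58.1, relative log expression or total count scaling, no filter, a stricter filter (mean of 50 counts), the 2 compared groups fitted alone, the strand-specific column, no fold threshold, the title-number run as a covariate (also with order) or each run alone, and leaving out each mouse. Leaving out both libraries that stood apart was chosen after seeing the data.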

Additional observations from a re-analysis of the deposited data

Results flagged for a closer look

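Among 280 groups of 5 mice (140 genes, 2 groups each), 30 held a mouse far from the other 4, with a gap over 0.71 of the range of the group. Chance alone gives about 1 in 20. Values are CPM.

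Mouse 2 of the 3 μg/kg group was the high one for Saa1 (878), Saa2 (657), Cxcl1 (219), Lars2 (2008) and Gm15564 (13.4), and the low one for Gys2 (59.7). Mouse 5 of that group was low for Cd36 (133), Cyp4a14 (6.6), Cyp4a10 (84.9), Cyp2b10 (28.6), Serpina7 (1.99), Hcn3 (0.064) and Atp6v0d2 (0.256), and high for Arhgap10 (15.4). These values span P450 genes, fatty acid uptake and a thyroxine carrier.

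Vehicle mouse 2 was high for the muscle genes Acta1 (146) and Tpm2 (59.5), for Col1a1 (22.8) and, with 1 count, for Col9a2 (0.0622), and low for Mup3 (7459) and Ahrr (0). Vehicle mouse 1 was high for Pnpla3 (8.26) and BC023105 (12.2) and low for Acaa1b (1039). Vehicle mouse 3 was low for G6pc (384), Steap2 (4.66) and Itgax (0), vehicle mouse 4 for H2-Eb1 (9.16), Cyfip2 (1.12) and S100a9 (0), and vehicle mouse 5 for Psat1 (0.43).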

How the results depend on the processing

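The 1038 calls at 3 μg/kg ranged from 837 to 1021 when each of the 10 mice was left out in turn, the 697 rises from 570 to 707 and the 341 falls from 267 to 314. Run 1 of the title numbers alone gave 429 calls (255 higher, 174 lower), run 2 alone 402 (290 higher, 112 lower) and no fold threshold 1577 (600 lower). These fits of 1 run hold fewer mice. DESeq2 gave 1174, limma on the deposited log2 values 861, no filter 961, the filter at a mean of 50 counts 824, both groups alone 969 (601 higher, 368 lower) and the strand-specific column 912, all within 1.5 times the main count. The 9 calls between 1 and 3 μg/kg became 22 with DESeq2, 0 in run 1 alone and 4 in run 2 alone, and 7 to 10 with 1 mouse left out. The 1041 calls between 3 and 10 μg/kg became 162 in run 1 alone and 354 in run 2 alone, and 682 to 1084 with 1 mouse left out, the lowest without mouse 3 of the 10 μg/kg group. Apart from the fewer mice per run, the cause was not tested.

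Over 140 genes and 3335 values under the alternatives, 2843 kept direction and call, 486 kept direction and lost the call and 6 turned. Dropping the fold threshold reuses the main fit, so the 140 values of that setting, all counted as kept, could not change. The turned values were those of Acta1, at 1.82 without vehicle mouse 2, 2.12 without both libraries that stood apart and 3.27 in run 2 alone, and of Gm15564, at -0.05 without mouse 2 of the 3 μg/kg group or without both, and -0.55 in run 2 alone. With 1 mouse left out, Acta1 ranged from -9.12 to 1.82 and Gm15564 from -0.05 to 1.86. Of the 140 genes, 86 were called in all 10 fits that left out 1 mouse. With run and order as a covariate 1097 genes were called, and 16 of the 140 were not, at adjusted p up to 0.14: Saa1, Saa3, S100a8, S100a9, Cxcl1, Cxcl10, Lcn2, Oas1a, Ifi47, BC023105, Elovl6, Chac1, Gm15564, Whrn and, under the fold threshold, Clec4f (0.55) and Cyp3a25 (-0.54). With run alone as a covariate 1069 were called and Oas1a was not (adjusted p 0.052). No paired analysis was possible because the labels carry no replicate numbers that mice of different groups share. Depth of 15.5 to 20.9 M counts leaves genes near the floor, such as Ahrr, Nptx1 and Ovol1 in vehicle, with lower bounds in place of folds.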

Other observations

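Of the 14 genes that were higher than vehicle at 3 μg/kg and lower at 10 than at 3 μg/kg, 5 are described here, named after their values were seen. The 14 include Abcc3, described above, and the 5 do not stand for all of them. Both contrasts hold the 3 μg/kg mice, so values high by chance there would favour this pattern. Of the 5 genes, Tgtp1, Ifi47, Gbp11 and Tap1 are known as genes that interferon gamma induces. Tgtp1, a T cell specific GTPase, was at 3.58, 2.43, 1.36, 0.979 and 3.01 CPM in vehicle and 1.33, 16.8, 3.77, 30.1 and 13.6 CPM at 3 μg/kg. Mouse 1 of the treated group stayed within the vehicle range while mice 2, 4 and 5 were well above it. Its mean was 18 CPM at 1, 13.1 at 3 and 2.92 CPM at 10 μg/kg (10 minus 3 log2 -2.15 ± 0.70 SE, edgeR adjusted p 0.043). The GTPase Ifi47 averaged 20.5, 36.5, 39.1 and 16.3 CPM in vehicle and at 1, 3 and 10 μg/kg. Gbp11 averaged 5.67, 15, 17 and 5.35 CPM and the peptide transporter Tap1 30.1, 62, 59.4 and 34.5 CPM. BC023105 followed with 4.99, 36.7, 21.9 and 4.53 CPM. Groups at 3 μg/kg and vehicle overlapped in all 5, and the calls of Tgtp1, Ifi47, Gbp11 and BC023105 against vehicle were lost in 3, 7, 7 and 6 of the 10 fits that left out 1 mouse, while that of Tap1 was lost in none.

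The 7 genes that were lower than vehicle at 3 μg/kg and higher at 10 than at 3 μg/kg were Steap2, Slc2a4, Gtse1, Cyp39a1, Atp6v0d2, Slco1a4 and Whrn. Their calls against vehicle were lost in 6 of the 10 fits that left out 1 mouse for Gtse1 and for Whrn (adjusted p up to 0.11 and 0.12), in 2 for Cyp39a1 (0.075), in 1 for Atp6v0d2 (0.17, without vehicle mouse 5) and in 1 for Slc2a4 (0.064, without vehicle mouse 2), and in none for Steap2 and Slco1a4. Slco1a4, an organic anion carrier, was at 48.8 CPM in vehicle, 20.7 at 3 and 40.2 CPM at 10 μg/kg. Slc2a4, the insulin-regulated glucose transporter of muscle and fat, had no count in any 3 μg/kg mouse and 3.36 CPM in vehicle mouse 2, the library with muscle reads.

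Of 16 genes of the integrated stress and unfolded protein response, Psat1, of serine synthesis, rose 3.78-fold from 0.77 ± 0.197 to 2.95 ± 1.46 CPM, and Chac1 was called with overlapping groups (4.56-fold, lost in 6 of the 10 fits that left out 1 mouse). Of 10 pericentral genes, Slc1a2, a glutamate carrier, rose 1.99-fold and Lect2, a secreted hepatokine, fell 1.74-fold, with no overlap in either. Of 14 heme and iron genes, Cyp2a5 rose and Hamp2, a hepcidin, fell 2.87-fold, a call lost in 3 of those fits.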
